A study of Arabidopsis thaliana with 24 samples.

Results

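The transcripts described here are those of 10 genes of the Arabidopsis thaliana circadian clock, chosen by their AGI locus codes from a count table of 33602 genes. They are the morning-expressed CCA1 (AT2G46830), LHY (AT1G01060), RVE8 (AT3G09600) and PRR9 (AT2G46790), the day-expressed PRR7 (AT5G02810) and PRR5 (AT5G24470), and the evening-expressed TOC1 (AT5G61380), GI (AT1G22770), ELF4 (AT2G40080) and LUX (AT3G46640). All 10 were found, and all 10 were among the 17734 genes with enough counts to test. On the TAIR10.1 assembly the morning genes lie at chr2:19245591-19248915 (CCA1), chr1:33365-37871 (LHY), chr3:2946239-2949017 (RVE8) and chr2:19232607-19235179 (PRR9). PRR7 lies at chr5:637681-642030 and PRR5 at chr5:8356204-8358546. The evening genes lie at chr5:24674963-24678550 (TOC1), chr1:8061751-8067790 (GI), chr2:16734294-16734953 (ELF4) and chr3:17183042-17186959 (LUX). LHY, PRR7, PRR5 and ELF4 are on the minus strand and the others on the plus strand.

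RNA-seq was carried out on whole 7-day-old seedlings in 24 libraries, 4 in each of 6 groups. The groups were card1-2 with DMBQ, card1-2 with mock treatment, card1-1 with DMBQ, card1-1 with mock treatment, wild type (WT) with DMBQ and WT with mock treatment. DMBQ, a dimethoxy-benzoquinone of the kind released from lignin, was given at 5 µM for 10 min, and mock seedlings received the same volume of the solvent DMSO for 10 min. The WT was Col-0 expressing the calcium reporter aequorin, and both mutants were in that aequorin background. CARD1 encodes a leucine-rich repeat receptor kinase that Arabidopsis needs for its calcium response to quinones, and card1-1 and card1-2 are alleles of it. All seedlings grew at 22 °C in 16 h of light and 8 h of dark with 0.25% sucrose. The hour of harvest is not given in the sources used here, nor is what a replicate number stands for, and p-values then rest on library-to-library spread, which may be technical. Gene counts ran from 2048246 to 9000207 per library, and the share of alignment records that were not unique ran from 17.3% to 66.5%. With DMBQ that share averaged 47.8% for card1-2, 55.9% for card1-1 and 33.4% for WT, and with mock it averaged 37.3%, 25.0% and 24.7% for the same genotypes, so it moved with both treatment and genotype. Summed levels of 5 shoot markers lay between 14456 and 22707 CPM (counts per 1000000 in genes) in every library, those of 8 root markers between 35.4 and 64.7 CPM, and no seed storage marker had enough counts to test, although 1 library of DMBQ-treated card1-1 held 15.8 CPM of them. CARD1 itself averaged 52.8 ± 12.7 CPM in card1-2 mock, 54.1 ± 6.03 CPM in card1-1 mock and 71.4 ± 5.41 CPM in WT mock libraries (SD, n = 4 each). Neither mutant passed the test for it, and since the lesions are not described in the sources used here, its transcript level does not check the labels.

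The plant clock is a loop of transcriptional repressors that follow one another through the day. CCA1 and LHY are MYB factors of dawn that repress the evening genes, and RVE8, a related MYB factor, activates them in the afternoon. The pseudo-response regulators PRR9, PRR7, PRR5 and TOC1 are made in that order from morning to evening and repress CCA1 and LHY. ELF4 and LUX join ELF3 in the evening complex, a repressor of PRR9 and PRR7 among others, and GI stabilises the protein that degrades TOC1 and PRR5.

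The evening element, AAAATATCT, is the site through which CCA1, LHY and RVE8 act on evening genes. In the 500 bases before the annotated gene start (TAIR10.1), on either strand, it was present in 3 of the 10 clock genes, PRR5, TOC1 and LUX, and in 4.11% of the windows of 32834 genes of the table. The 4 matches are shown because PRR5 and TOC1 are among the genes called below for differences between replicate numbers, with LUX as the third carrier. PRR7, also called there, has no match in its window, and LUX was not called (edgeR adjusted p = 0.703). Each match is read 5′ to 3′ along the strand that carries it, with the element in capitals.
PRR5, chr5:8358820-8358848, plus strand: tggatttgaaAAAATATCTagtagaattg
PRR5, chr5:8358715-8358743, plus strand: tggagaaaagAAAATATCTagaaaaaatc
TOC1, chr5:24674802-24674830, minus strand: catcttggagAAAATATCTcatgatattt
LUX, chr3:17182979-17183007, plus strand: tagaagatctAAAATATCTagctaactcg
The elements lie 284 and 179 bases before the start of PRR5, 143 before that of TOC1 and 45 before that of LUX. The PRR5 model holds coding sequence alone, so its window ends at the start codon. The related CCA1-binding site AAAAATCT was found before 3 of the 10 genes (LHY, PRR9 and PRR5) and 11.83% of all genes. The G-box CACGTG was found before 5 (CCA1, LHY, PRR9, PRR7 and LUX) and 8.7% of all genes. GATTCG or GATACG, the letters of LUX-binding sites, were found before 4 (PRR9, TOC1, ELF4 and LUX) and 22.65% of all genes. No match of these letters overlaps an evening element shown above, and a match describes the sequence alone.

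All 10 transcripts were detected in every library. Per kilobase of exon, PRR7 was the most abundant at 85.5 CPM per kb on average over the 24 libraries, followed by TOC1 (40.8), PRR5 (35.1), LUX (19.2) and CCA1 (18.9). ELF4 (9.80), PRR9 (7.36), GI (7.01), RVE8 (5.00) and LHY (5.00) made up the lower part. PRR7 stood above every other gene without overlap of libraries in all groups other than WT mock, where its range met that of PRR5. The neighbours TOC1 and PRR5, LUX and CCA1, and the 5 lowest genes among themselves overlapped wherever they stood next to each other, with LUX above CCA1 in WT mock as the exception. Depth was lowest for ELF4, with 4 to 66 counts per library, against 513 to 2149 for PRR7.

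**Figure D1:**
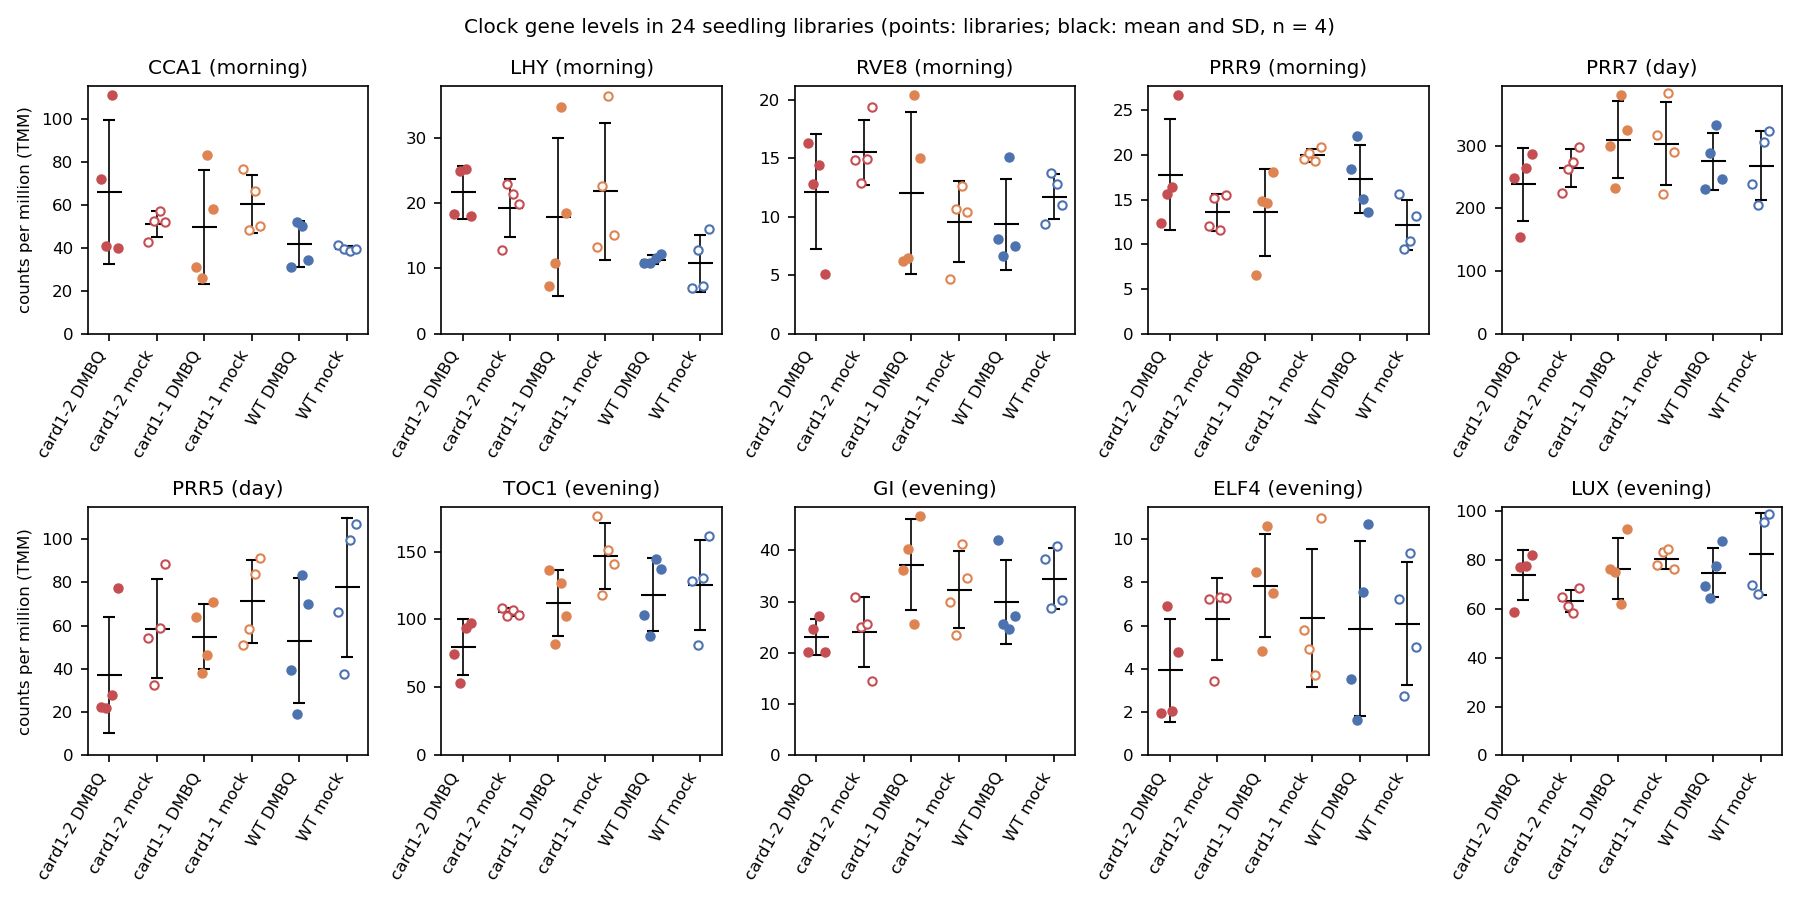
CPM (TMM-scaled, linear axis from 0) of the 10 clock genes in each library, by group, with filled points for DMBQ, open points for mock, and the mean ± SD of 4 libraries in black. PRR5 spreads widest within groups among the well-counted genes, and LUX stays between 58.2 and 98.8 CPM.

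After 10 min of DMBQ, none of the 10 clock genes passed the test for a change in any genotype. The test was edgeR's quasi-likelihood test with Benjamini-Hochberg adjustment over all 17734 genes and a threshold of 0.05. It called 0 of 10 in card1-2, where 2.2% of all genes were called, 0 of 10 in card1-1, where 6.7% were, and 0 of 10 in WT, where 1.03% were. At an unadjusted p under 0.05 there was 1 clock gene in card1-2 (TOC1) and 0 in card1-1 and WT, beside 14.4%, 20.3% and 5.55% of all genes, and DESeq2 and limma voom also called none. The median log2 fold change of the 10 genes was −0.11 in card1-2, −0.18 in card1-1 and −0.08 in WT, beside 0.025, −0.0045 and −0.0066 over all genes. In whole seedlings, fewer cells of a type and less RNA per cell cannot be told apart.

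The precision differed between genes. In WT the 95% interval of the log2 fold change was narrowest for LUX, from −0.48 to 0.20, and for PRR7, from −0.33 to 0.40, so a change of 2-fold lay outside them. For TOC1 it ran from −0.48 to 0.31 and for GI, the clock and flowering regulator, from −0.69 to 0.28. For PRR5 it ran from −1.53 to 0.42, for ELF4 from −1.14 to 0.99 and for RVE8 from −1.14 to 0.44. A 2-fold fall lay inside each of these. For PRR9 it ran from −0.09 to 1.13, so a 2-fold rise lay inside. The spread behind all these intervals includes the differences between replicate numbers given further on.

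Among the morning genes, PRR9 gave the largest fitted difference in response between a mutant and WT. PRR9 had 6.63, 14.9, 14.7 and 18.1 CPM in DMBQ-treated card1-1, against 19.5, 20.2, 19.3 and 20.9 CPM in mock-treated card1-1. In card1-2 it had 12.4, 15.6, 16.4 and 26.7 CPM with DMBQ, against 12.02, 15.2, 11.6 and 15.5 CPM with mock. In WT it had 18.4, 22.1, 15.1 and 13.6 CPM with DMBQ, against 15.7, 9.52, 10.4 and 13.2 CPM with mock. The card1-1 libraries did not overlap, with every DMBQ value below every mock value, whereas those of card1-2 and WT did. Non-overlap of this kind, in either direction, was found for 10.3% of all genes in card1-1, 8.88% in card1-2 and 6.86% in WT. The fitted log2 response of PRR9 was −0.56 ± 0.31 (SE) in card1-1, 0.39 ± 0.31 in card1-2 and 0.52 ± 0.30 in WT. The response in card1-1 minus that in WT was −1.08 ± 0.43 (edgeR, unadjusted p = 0.0164, adjusted p = 0.391), and none of the 3 responses nor their difference passed the test. In card1-2 the same difference was −0.12 ± 0.43.

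TOC1, the evening repressor of CCA1 and LHY, had 74.2, 53.2, 94.0 and 97.3 CPM in DMBQ-treated card1-2, against 108, 103, 107 and 103 CPM in mock-treated card1-2. Every DMBQ value was below every mock value. In card1-1 it had 137, 82.2, 127 and 103 CPM with DMBQ, against 176, 118, 151 and 140 CPM with mock, and these ranges overlapped. In WT it had 103, 88.2, 144 and 137 CPM with DMBQ, against 128, 81.1, 131 and 161 CPM with mock, also overlapping. These ranges take in the differences between replicate numbers given further on. The log2 responses were −0.41 ± 0.20 in card1-2 (edgeR, adjusted p = 0.331), −0.39 ± 0.20 in card1-1 (adjusted p = 0.264) and −0.08 ± 0.20 in WT. The 2 mutant values did not pass, and neither did their differences from WT, −0.33 ± 0.28 and −0.30 ± 0.28.

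PRR5, the afternoon repressor, had a fitted log2 response below 0 in all 3 genotypes, with 95% intervals that take in 0. It had 22.2, 21.8, 27.7 and 77.5 CPM in DMBQ-treated card1-2, against 54.5, 32.4, 59.1 and 88.4 CPM in mock-treated card1-2. In card1-1 it had 64.1, 38.3, 46.5 and 71.0 CPM with DMBQ, against 51.2, 58.6, 83.8 and 91.3 CPM with mock. In WT it had 39.6, 19.3, 83.5 and 70.0 CPM with DMBQ, against 66.5, 37.6, 99.7 and 107 CPM with mock. The groups overlapped in each genotype, but their ranges take in the differences between replicate numbers given further on. Overlap therefore does not show that values were alike within a number, and the values are listed in the order of replicates 1 to 4. The fitted response stayed below 0 in 34 of 34 alternative fits in each genotype. With replicate-number terms in the edgeR fit, the adjusted p was 0.116 in card1-2, 0.399 in card1-1 and 0.475 in WT, so none passed. In DMBQ-treated card1-2, 1 library, at 77.5 CPM, stood well above the other 3. That library was replicate 4, the number in which PRR5 was highest in 5 of 6 groups. The log2 responses were −0.64 ± 0.48, −0.37 ± 0.47 and −0.55 ± 0.47 for card1-2, card1-1 and WT.

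The remaining genes also stayed short of the threshold. The log2 response of CCA1 lay between −0.28 and 0.34 over the genotypes, that of LHY between −0.28 and 0.16, and that of RVE8 between −0.36 and 0.33. It lay between −0.16 and 0.04 for PRR7, between −0.20 and 0.21 for GI, and between −0.14 and 0.23 for LUX. That of ELF4 lay between −0.58 and 0.30, with standard errors of 0.53 to 0.55. Averaged over both alleles, the response minus that of WT lay between −0.60 for PRR9 and 0.34 for RVE8. For the tests of response differences, 0 of 10 clock genes were called for card1-1, card1-2 and the mean of both, beside 0.0564%, 0.0282% and 0.062% of all genes. At an unadjusted p under 0.05 the clock genes numbered 1 (PRR9), 0 and 0, beside 9.41%, 7.64% and 8.12% of all genes, and DESeq2 and limma voom called none.

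**Figure D2:**
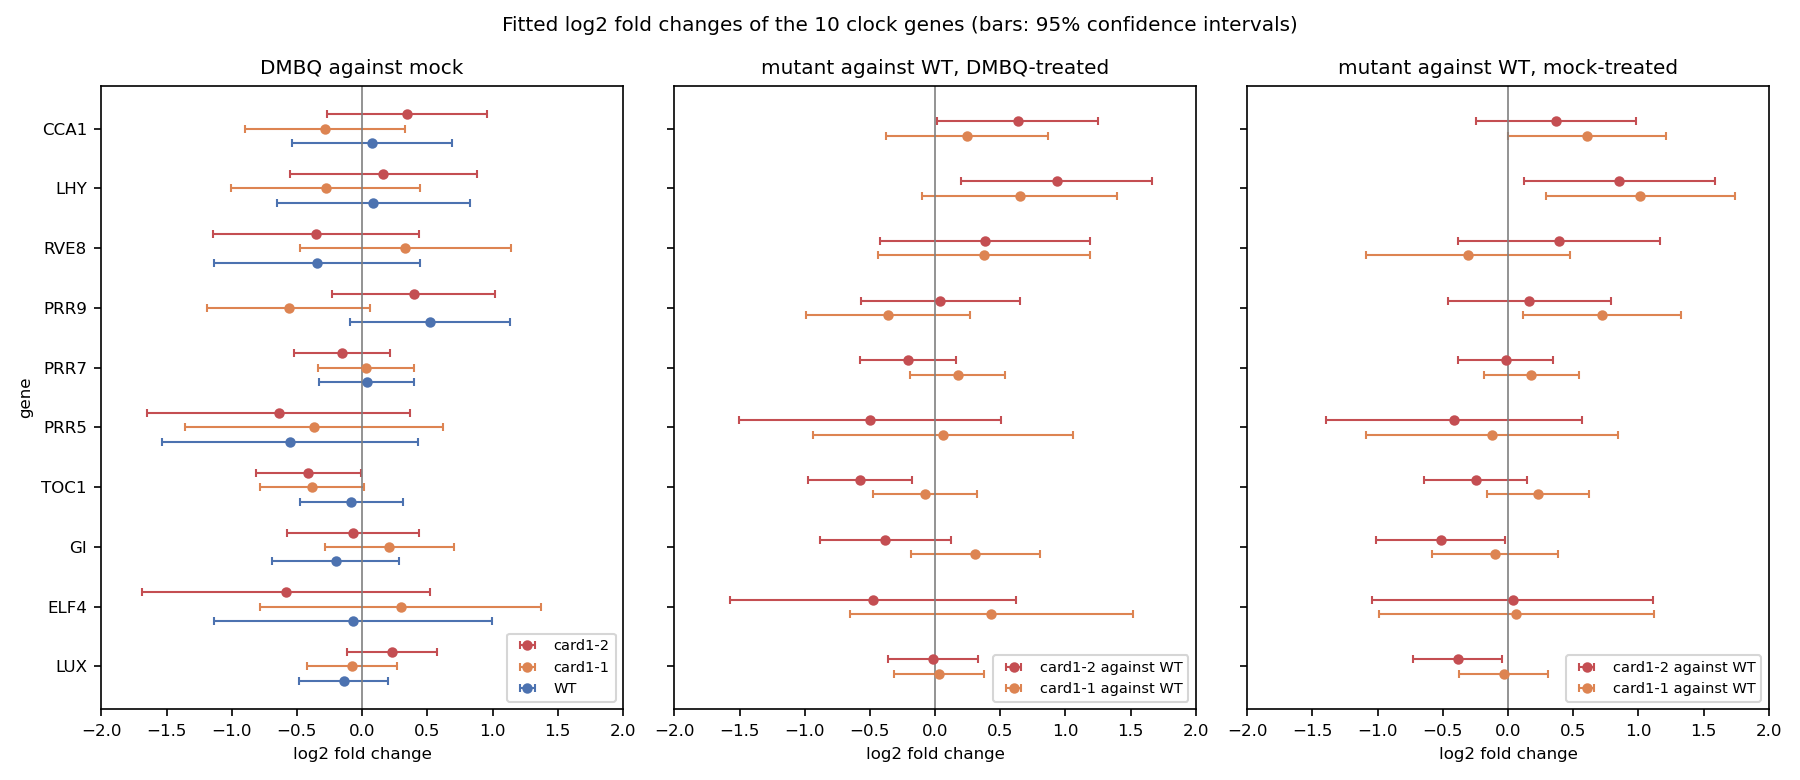
Fitted log2 fold changes (points) with 95% confidence intervals (bars) for DMBQ against mock in each genotype (left), and for each mutant against WT with DMBQ (middle) and with mock treatment (right). LHY lies to the right of 0 in all 4 mutant comparisons, and no value passed the test after adjustment over all genes.

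Between genotypes, the dawn gene LHY was the member with the largest fitted differences, and it did not pass the test either. LHY had 18.3, 25.0, 25.2 and 18.01 CPM in DMBQ-treated card1-2 and 7.36, 10.9, 34.7 and 18.5 CPM in DMBQ-treated card1-1, against 10.8, 10.8, 11.5 and 12.2 CPM in DMBQ-treated WT. It had 12.8, 22.9, 21.3 and 19.9 CPM in mock-treated card1-2 and 13.3, 22.5, 36.3 and 15.1 CPM in mock-treated card1-1, against 6.99, 12.7, 7.38 and 16.0 CPM in mock-treated WT. Only the DMBQ-treated card1-2 and WT libraries were fully apart, the mutant being higher. With mock treatment the log2 difference from WT was 0.85 ± 0.36 in card1-2 and 1.02 ± 0.36 in card1-1. With DMBQ it was 0.93 ± 0.36 in card1-2 (edgeR, unadjusted p = 0.0143, adjusted p = 0.245) and 0.65 ± 0.37 in card1-1. The pair of comparisons within a treatment share their WT libraries, so the 4 values are not independent.

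CCA1, the close relative of LHY, had 42.9, 52.5, 57.3 and 52.0 CPM in mock-treated card1-2 and 76.7, 48.2, 66.4 and 50.0 CPM in mock-treated card1-1, against 41.2, 39.5, 38.8 and 39.3 CPM in mock-treated WT. Every mutant library was above every WT library. The log2 differences were 0.37 ± 0.30 and 0.60 ± 0.30, and neither passed the test. With DMBQ the libraries overlapped, at 39.9 to 111 CPM in card1-2 and 26.2 to 83.2 CPM in card1-1, against 31.2 to 52.2 CPM in WT. PRR9 in mock-treated seedlings was also apart in card1-1, at 19.3 to 20.9 CPM against 9.52 to 15.7 CPM in WT (log2 difference 0.72 ± 0.30), and overlapped in card1-2.

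In the opposite direction, TOC1 had the smallest p of any clock gene with DMBQ, at 53.2 to 97.3 CPM in card1-2 against 88.2 to 144 CPM in WT (log2 difference −0.58 ± 0.20, edgeR adjusted p = 0.167). Mock-treated card1-2 also gave −0.52 ± 0.25 for GI and −0.39 ± 0.17 for LUX against WT, with unadjusted p of 0.0416 and 0.028 in the edgeR fit and adjusted p of 1. LUX overlaps AT3G46650, a gene on the opposite strand, and the use of strand in counting is not given in the sources used here, so reads of the pair may not have been told apart.

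With mock treatment 0 of 10 clock genes were called in either mutant, beside 0% of all genes in card1-1 and 0.0226% in card1-2. For card1-1 the count over all genes was 0 by edgeR and by limma voom and 4 by DESeq2, with 694 genes at an unadjusted p under 0.05. With DMBQ 0 of 10 were called in either mutant, beside 0.801% in card1-1 and 0.789% in card1-2. DESeq2 and limma voom called no clock gene in these 4 comparisons. At an unadjusted p under 0.05 there were 3 clock genes in card1-2 with mock (LHY, GI and LUX), 2 in card1-1 with mock (LHY and PRR9), 3 in card1-2 with DMBQ (CCA1, LHY and TOC1) and 0 in card1-1 with DMBQ. The shares of all genes were 3.29%, 3.91%, 12.3% and 12.9% in that order. Libraries without overlap were found for 3.54% of all genes in card1-1 and 4.95% in card1-2 with mock treatment, and for 6.95% and 6.94% with DMBQ. Among the clock genes these were 2 (CCA1 and PRR9) and 1 (CCA1) with mock, and 0 and 1 (LHY) with DMBQ.

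The balance of evening to morning genes was summarised in each library as the log2 ratio of the summed counts of TOC1, GI, ELF4 and LUX to those of CCA1, LHY, RVE8 and PRR9. For card1-2 it averaged 0.65 ± 0.42 with DMBQ and 1.01 ± 0.23 with mock, for card1-1 1.46 ± 0.76 with DMBQ and 1.26 ± 0.17 with mock, and for WT 1.52 ± 0.42 with DMBQ and 1.72 ± 0.33 with mock (SD, n = 4 each). Single libraries ran from 0.27 to 2.32, and the ratio was above 0 in all 24. A ratio within a library does not depend on the scaling between libraries. It restates the 8 genes above and was given no test.

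Other clock genes were taken from a list of 48, made of 33 further regulators, 11 outputs and 4 photoreceptors, of which 43 could be tested. CO, FT, RVE3, JMJ30 and EFL1 had too few counts. In WT none of the 43 was called with DMBQ by edgeR, DESeq2 or limma voom, and 1 had an unadjusted p under 0.05 in edgeR. In card1-1 edgeR called 2 of the 43 (4.65%, beside 6.7% of all genes), and DESeq2 also called EFL4. There TCP21, a factor that represses CCA1, rose with DMBQ, at 48.2, 43.9, 40.4 and 44.1 CPM against 20.7, 23.7, 21.5 and 26.7 CPM with mock (log2 0.93 ± 0.23, edgeR adjusted p = 0.00827). PIF5, the light-regulated growth factor gene under clock control, fell there, at 70.3, 96.7, 99.9 and 122 CPM with DMBQ against 373, 135, 195 and 153 CPM with mock (log2 −1.14 ± 0.26, adjusted p = 0.00736). For both genes the libraries did not overlap. With the share of records not unique as a covariate the values were 0.78 (adjusted p = 0.426) for TCP21 and −0.54 (adjusted p = 0.677) for PIF5, so neither call holds with it. That fit called 119 genes over all, against 1189 without the covariate, so the loss is not particular to these genes. In card1-1 the share averaged 55.9% with DMBQ and 25.0% with mock, so it goes largely with treatment there. Without the 3 libraries with over 55% of records not unique, they were 0.86 (adjusted p = 0.0535) for TCP21 and −1.13 (adjusted p = 0.0628) for PIF5. The edgeR fit of only the groups compared also lost the PIF5 call, at −1.13 (adjusted p = 0.0599). Shoot markers moved in that comparison too, with RBCS1A at 0.71 and LHCB1.3 at 0.64 higher and RCA at −0.40 lower, and their part in the result was not tested.

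In card1-2 edgeR called 1 of the 43 with DMBQ (2.33%, beside 2.2% of all genes), while DESeq2 also called PRR3 and limma voom PIF4. The called gene, the evening complex gene ELF3, fell with DMBQ, at 70.7, 48.4, 40.1 and 61.8 CPM against 90.6, 89.7, 95.4 and 105 CPM with mock (log2 −0.78 ± 0.17, edgeR adjusted p = 0.00678). Every DMBQ library was below every mock library. The call held with the share as a covariate, at −0.70 (adjusted p = 0.0414), and in all 24 fits that left out 1 library. It was lost with offsets for GC content and length, at −0.61 (adjusted p = 0.0513). Of the 5 shoot markers, RCA was lower there too (log2 −0.41, adjusted p = 0.0336) and the other 4 had values of 0.16 to 0.47 that did not pass, and their part in the result was not tested. ELF3 was also lower in DMBQ-treated card1-2 than in DMBQ-treated WT, where it had 98.2, 101, 87.5 and 86.8 CPM (log2 −0.76 ± 0.17, adjusted p = 0.0218). That call was lost in 9 of 34 alternatives. Among them were the edgeR fit of only the groups compared (adjusted p = 0.135) and the covariate (adjusted p = 0.118). The ELF3 call was also lost on leaving out any 1 of the 4 WT libraries or replicate 2 or 3 of card1-2. Those fits gave log2 values of −0.78 to −0.63 and adjusted p of 0.0582 to 0.0857. PRR3, the pseudo-response regulator that stabilises TOC1 protein, had 11.7, 4.35, 6.68 and 6.61 CPM in DMBQ-treated card1-2 against 24.4, 15.5, 21.5 and 24.01 CPM in DMBQ-treated WT (log2 −1.58 ± 0.33, adjusted p = 0.0154). The PRR3 call was lost in 4 of 34 alternatives. The largest adjusted p, 0.0908, came from the edgeR fit of only the groups compared. The other 3 were without WT replicate 3 (adjusted p = 0.0504), WT replicate 4 (adjusted p = 0.0607) or card1-2 replicate 2 (adjusted p = 0.0827). ELF3 and PRR3 were 4.65% of the 43 genes, beside 0.789% of all genes, and DESeq2 also called LNK3. By edgeR no gene of the list was called in card1-2 or card1-1 against WT with mock treatment, in card1-1 against WT with DMBQ, or for a difference in response, with 6, 3, 5 and 2 to 6 genes at an unadjusted p under 0.05 in that order. DESeq2 and limma voom also called none there, other than ELF3 for the response of card1-2 minus WT by DESeq2. In the edgeR fit that difference was −0.91 ± 0.24 for ELF3 (adjusted p = 0.214).

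Among the 10 clock genes, calls were made for the replicate number in the labels and not for treatment or genotype. These tests are not alike, so the sizes of the effects are not ranked by them. The replicate-number test drew on the libraries of all groups. The main edgeR fit for treatment and genotype compared single groups or their responses, without replicate-number terms. A treatment effect across all genotypes was not tested. Within groups, the SD of PRR5 on the log2 scale was 0.68, larger than that of 98.4% of the 2673 genes within 1.5-fold of its level. The values were 0.48 for CCA1 (larger than 93.0% of such genes), 0.32 for TOC1 (79.3%), 0.30 for PRR7 and 0.20 for LUX (12.1%). A test of the replicate-number terms beside the group terms, chosen after these values were seen, called 3 of the 10 clock genes, beside 2.32% of all genes. They were PRR5 (fitted log2 range between numbers 1.35, edgeR adjusted p = 8.47e-05), TOC1 (0.54, adjusted p = 0.0282) and PRR7 (0.50, adjusted p = 0.0422). The median fitted range was 0.56 for the 10 clock genes and 0.42 for all genes.

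PRR5 was lowest in replicate 2 in 5 of 6 groups and highest in replicate 4 in 5 of 6. TOC1 was lowest in replicate 2 in 6 of 6 groups, and PRR7 in 4 of 6. Leaving out each library in turn, PRR5 kept its call in 24 of 24 fits, with an adjusted p of at most 0.000603. TOC1 kept it in 17 of 24 and PRR7 in 8 of 24, so the TOC1 and PRR7 calls depend on single libraries. The TOC1 call was lost without replicate 2 of any group other than card1-2 mock, or without replicate 3 of DMBQ-treated WT or card1-1, with adjusted p of 0.0511 to 0.185. Where the PRR7 call was lost, the adjusted p ran from 0.0533 to 0.14. CCA1 and LHY, with ranges of 0.58 and 0.89 and adjusted p of 0.344 and 0.316, did not pass.

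Of the 43 other clock genes tested, 4 were called for replicate number, beside 2.32% of all genes. The median fitted range of the 43 was 0.40, beside 0.42 for all genes, so the list as a whole did not stand out. RVE1, a MYB factor that links the clock to auxin, was lowest in replicate 2 in 6 of 6 groups (log2 range 1.85, edgeR adjusted p = 0.000596). With DMBQ it had 35.4, 19.1, 78.6 and 45.3 CPM in card1-2, 18.4, 4.03, 70.1 and 44.5 CPM in card1-1, and 25.0, 14.6, 68.8 and 47.7 CPM in WT, in the order of replicates 1 to 4. Its relative RVE7 was lowest in replicate 2 in 5 of 6 groups (1.29, adjusted p = 0.000183). COR28 and COR27, night-phased regulators of PRR5 and TOC1 in Arabidopsis, had ranges of 1.96 (adjusted p = 2.62e-05) and 2.26 (adjusted p = 0.00146). All 4 kept their calls in 24 of 24 fits without 1 library. Over all alternatives RVE7 kept its call in 31 of 33, RVE1 in 31 of 33, COR28 in 30 of 33 and COR27 in 29 of 32, the losses being in fits of the mock, DMBQ, card1-1 or card1-2 libraries alone, which hold fewer samples. None of the 11 tissue markers tested was called for replicate number, and 11 genes are too few for this to show equal tissue make-up. The root markers IRT1 and EXPA7 had fitted ranges of 1.65 and 1.55 (edgeR adjusted p = 0.881 and 0.643). The shoot markers CA1 and PSAD1 had unadjusted p of 0.031 and 0.044 in the edgeR fit. The share of records not unique averaged 36.6%, 35.8%, 39.2% and 37.9% in replicates 1, 2, 3 and 4, a spread smaller than that within any number. Gene counts averaged 3417634, 4618499, 3283120 and 2956420 in the same order, and replicate 2 holds the deepest library, at 9000207. Summed root markers averaged 49.0, 55.5, 45.6 and 45.8 CPM. The part of these in the replicate-number differences was not tested.

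**Figure D3:**
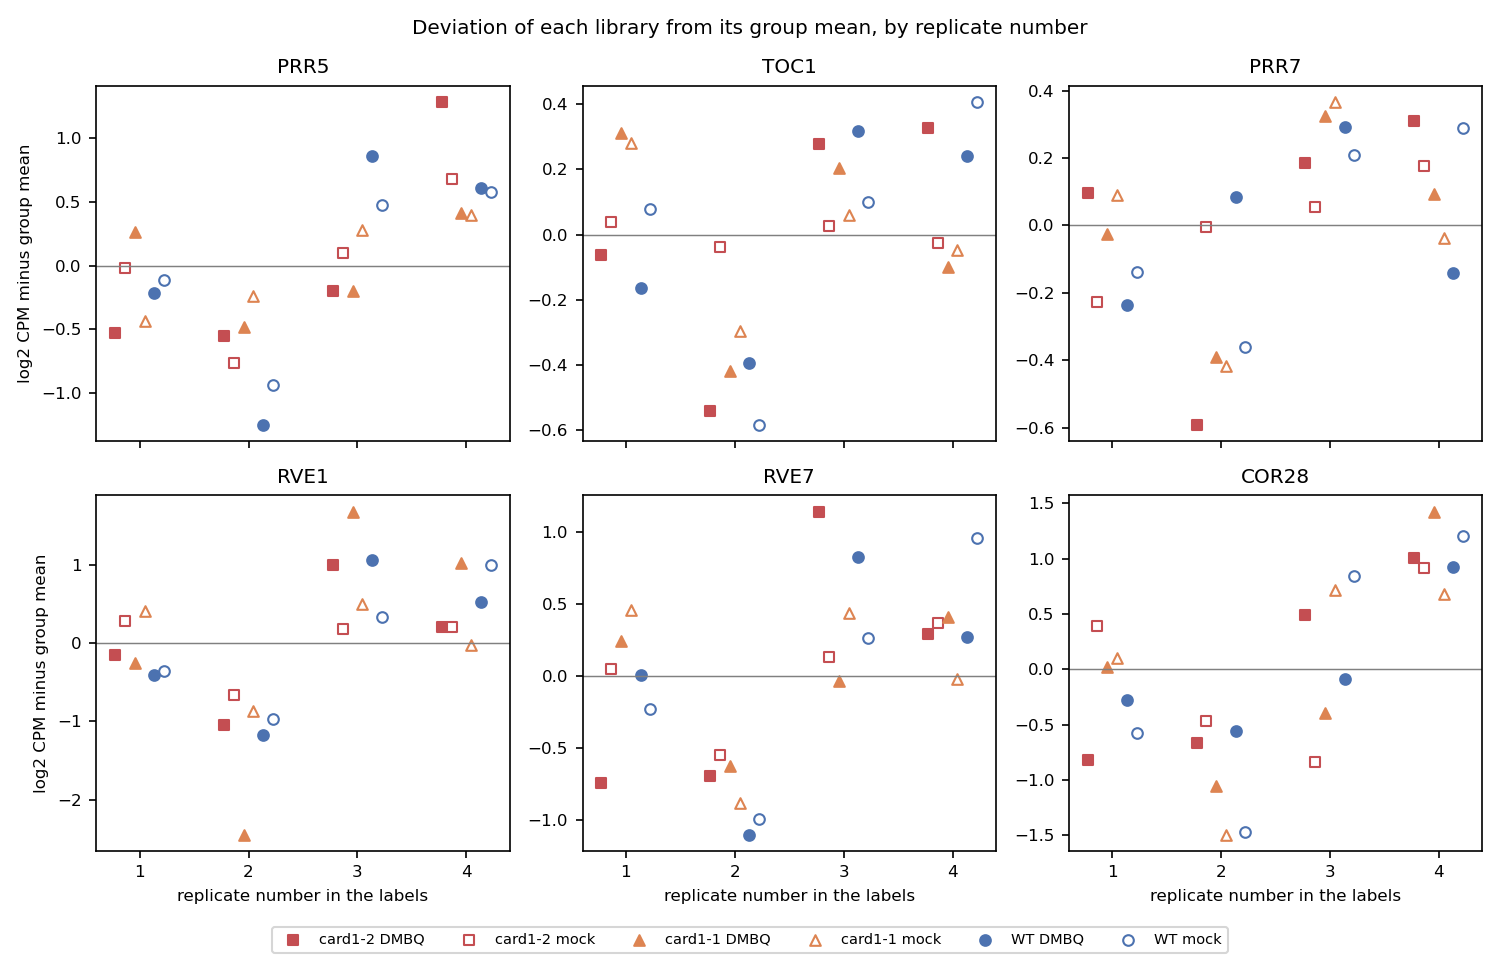
Log2 CPM of each library minus the mean of its group, by replicate number, for 3 clock genes (top) and 3 further clock genes (bottom), with filled symbols for DMBQ and open ones for mock. Replicate 2 lies below 0 in all 6 groups for PRR5, TOC1, RVE1 and RVE7.

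Some pairs of clock genes varied together from library to library within groups, and most of the 45 pairs did not pass r = 0.5. Over the 24 libraries, deviations from group means correlated with r = 0.72 for PRR7 and TOC1 (Spearman 0.65), 0.66 for PRR5 and TOC1 (0.66), 0.66 for PRR5 and LUX (0.65) and 0.65 for PRR5 and ELF4 (0.62). For LHY and RVE8 r was 0.62 (0.58), for CCA1 and PRR7 0.58 (0.55) and for CCA1 and RVE8 0.54 (0.50). These 7 pairs were above 0.5, 19 were below 0 and none was below −0.5, the lowest being −0.24 for CCA1 and LUX. Of 14675 other genes, 1.03% had a higher r with PRR7 than TOC1 did, and 0.63% a higher r with TOC1 than PRR7 did. For PRR5 and LUX the shares were 1.0% with PRR5 and 0.3% with LUX, and for PRR5 and ELF4 they were 1.17% with PRR5 and 0.11% with ELF4. Without the 2 libraries farthest from the median of the first gene, r was 0.63, 0.59, 0.63 and 0.57 for the 4 leading pairs in the order given. With the means of the replicate numbers also removed, r was 0.46 for PRR7 and TOC1, 0.28 for PRR5 and TOC1, 0.52 for PRR5 and LUX, and 0.45 for PRR5 and ELF4. In that measure 2 of the 45 pairs were above 0.5 and 2 below −0.5, which were CCA1 and PRR5 at −0.75, against −0.16 before, and PRR7 and ELF4 at −0.59, against 0.011 before. RVE8 and TOC1 gave −0.48, and PRR7 and PRR5 gave −0.17, against 0.49 before, so which pairs stand out depends on that step. The points share libraries, scaling and replicate numbers, so the values are given as a description.

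**Figure D4:**
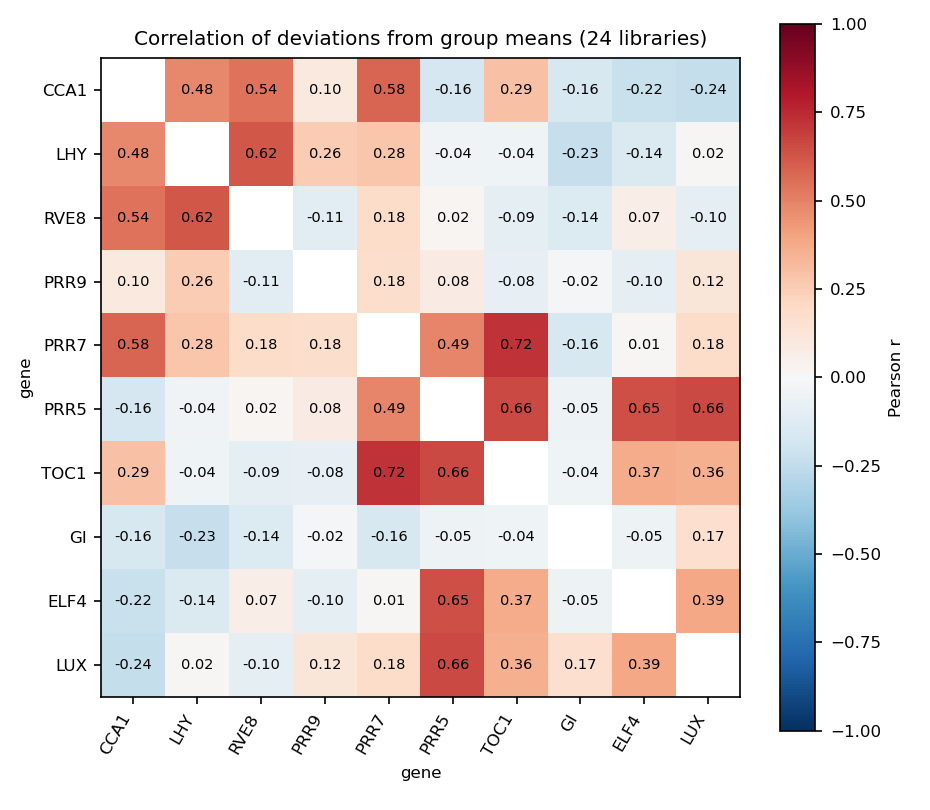
Pearson correlation, over 24 libraries, of the deviations of log2 CPM from group means for each pair of the 10 clock genes (colour from −1 to 1, values printed). PRR7 with TOC1 is highest at 0.72, PRR5 goes with TOC1, LUX and ELF4 at 0.65 to 0.66, and CCA1 with LUX is lowest at −0.24.

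Beyond these genes, the transcript most like each clock gene over the 24 libraries was sought among 14666 genes with a mean of at least 5 CPM. For LHY it was LNK2, a clock co-activator (r = 0.689), with AT5G20600 (0.688) and HCF164 (0.686) close behind. For LUX it was COR28 (0.75). For CCA1 it was COL2, a CONSTANS-like gene (0.74), for RVE8 it was STH (0.77), and for PRR7 it was ATGRIP (0.87). For PRR5 it was AT3G13062 (0.84), followed by SIP2 (0.84) and CIPK21, a calcium-sensor-regulated kinase gene (0.80). For TOC1 it was AT2G38800 (0.86), for GI AT2G24960 (0.71), for ELF4 SYP111 (0.74) and for PRR9 AT5G43403 (0.74). Group differences enter these values along with differences between libraries. Each first-ranked r is the largest of 14666 over 24 libraries, so high values can arise between unrelated genes. No background was set for them, and they are given as a description.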

How the data were processed

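Whole Arabidopsis seedlings were profiled by RNA-seq in 24 libraries, 4 in each of 6 groups, on a HiSeq4000, per the labels. The values are the authors' deposited counts per gene, whole numbers treated as estimated counts because 1 line of the table holds fractions. CASAVA, bcl2fastq 2.17, TopHat2 2.1.1, HTSeq 0.6.1 and the TAIR10 build are named in the submitters' processing notes, with no role or order given. No source used here gives the annotation release, the use of strand or the overlap mode. The 9 lines that name no gene, 1 of them the records not unique, stayed out of library sizes. Reads that HTSeq counts as not unique are lost to genes, so that share lowers depth.

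Genes were kept by edgeR's filter (a count of at least 10 at the median depth and 15 in total), which left 17734. Libraries were scaled by TMM and fitted in edgeR 4.0.16 (R 4.3.3) with 6 group terms over all 24 libraries, and 10 comparisons were adjusted by Benjamini-Hochberg over all genes. Alternatives used limma 3.58.1, DESeq2 1.42.0, other scalings, filters, covariates and left-out libraries. Correlations used log2 CPM with a prior count of 2 and likeness a mean of at least 5 CPM. The rule for named genes was all 10 members, the list genes called by edgeR in a comparison, the 3 genes most like each member, of which the text gives the first for most, and tissue markers. CARD1, list genes not tested and list genes called by another tool or for replicate number are named beside these. Locus codes were matched to RefSeq's TAIR10.1 annotation for 32835 of 33602 genes, and sequences are RefSeq's TAIR10.1. Same-numbered libraries of different groups did not meet the criterion for pairs. The members and lists were chosen with earlier results of these data known.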

Additional observations from a re-analysis of the deposited data

Results flagged for a closer look

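In 60 groups of 4 libraries, 3 held a library far from the other 3 by Dixon's criterion at 95%, and chance flags about 1 in 20 such groups. PRR5 reached 77.5 CPM in replicate 4 of DMBQ-treated card1-2, against 21.8 to 27.7 CPM in the other 3. Replicate 4 was the highest for PRR5 in 5 of 6 groups. GI reached 42.0 CPM in replicate 1 of DMBQ-treated WT, against 24.7 to 27.2 CPM in the other 3. ELF4 was at 3.44 CPM in replicate 2 of mock-treated card1-2, against 7.21 to 7.31 CPM in the other 3, which is a difference of few counts.

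The PRR9 response to DMBQ was flagged for differing in direction between card1-1 and WT. All 4 DMBQ libraries of card1-1 were below the card1-1 mock mean, and all 4 of WT were above the WT mock mean. The share of all genes that meet this rule was not counted. In WT the libraries overlapped, at 13.6 to 22.1 CPM with DMBQ and 9.52 to 15.7 CPM with mock. The difference, card1-1 minus WT, was −1.08 on the log2 scale, and in the edgeR fit it had an unadjusted p of 0.0164 and an adjusted p of 0.391. In that comparison 9.41% of all genes had an unadjusted p under 0.05 in edgeR. The other allele did not share the PRR9 difference. In card1-2 the log2 response was 0.39, beside 0.52 in WT, and the difference, card1-2 minus WT, was −0.12.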

How the results depend on the processing

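None of the 10 clock genes was called in any of 339 alternative fits of the 10 comparisons (other scalings, no filter, DESeq2, limma voom, fewer groups, covariates, left-out libraries). The fit with fewer groups was not run for the mean of both alleles, since it uses all 6. The smallest adjusted p, 0.0564 for TOC1 in card1-2 against WT with DMBQ, came from the fit with a replicate block, which called 0 clock genes throughout and gave adjusted p of 0.116 for PRR5 and 0.133 for TOC1 with DMBQ in card1-2. Over all genes the block gave 234 calls against 182 in WT, 1359 against 1189 in card1-1 and 58 against 10 for the response of card1-1 minus WT. Deviations of same-numbered libraries correlated with a median r of 0.0543 over 60 pairs (−0.0593 to 0.235). Over 180 pairs with other numbers the median r was −0.0226 (−0.178 to 0.171). An r over 0.1 was found in 16 of the 60 pairs and in 5 of the 180. Of 24 libraries, 15 correlated best with their own number, and the design does not say what a number marks. The count of 3 clock genes called for replicate number was 1 in the mock libraries alone, and 0 in the DMBQ, the card1-1 and the card1-2 libraries alone, which hold fewer samples. Leaving out 1 library gave 1 to 3. DESeq2 called 4 and 99 genes over all for card1-1 against WT with mock and for its response difference, against 0 and 10 by edgeR. The median log2 ratio of PRR5 to LHY was 1.90 and that of TOC1 to CCA1 1.24. ELF4, RVE8 and LHY rest on few counts, which limits their precision.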
